A study of Mus musculus with 4 samples.

Results

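Levels of the genes that encode the splicing machinery were compared in sorted mouse embryonic stem cells (ESCs). The set held 69 of the 24190 gene symbols in the deposited tables, chosen by name: the Srsf genes (11), the Snrp genes (12), the Hnrnp genes (20), the Sf3a and Sf3b genes (9), the U2af genes (3), the numbered Prpf genes (13) and Snw1, without Snrpn and without symbols that mark pseudogenes. The rule reads symbols and no measured value, but it was set with earlier results of these data known. Of the members, 68 are annotated as protein-coding genes and 1, Snrpert, as a processed pseudogene, and they lie on 18 chromosomes.

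E14 (ES-E14TG2a) is an established ESC line of a male mouse, kept here in serum-free N2B27 medium with the MEK inhibitor PD0325901 and the GSK3β inhibitor CHIR99021. A stably integrated Zscan4c promoter drove GFP in 1 line, called the reporter-only line here, and a GFP-Zscan4c fusion in the other, called the fusion line. Each line was sorted into GFP-negative (GFP-) cells, labelled pluripotent, and GFP-positive (GFP+) cells, labelled 2C-like after the mouse 2-cell embryo. Each population gave 1 poly-A RNA library, so there were 4 libraries and no replicate of any population. The model rests on 1 reporter line per construct, on a promoter reporter that defines the positive cells, and in the fusion line on cells that also make the fusion protein.

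Introns are removed by the spliceosome, which is built from small nuclear ribonucleoproteins: a ring of Sm proteins around each small nuclear RNA, the Sf3a and Sf3b complexes that hold the branch point, and the Prpf proteins that assemble and remodel the catalytic particle. U2af2 and U2af1 mark the end of the intron. SR proteins (Srsf) mostly promote the use of nearby splice sites and hnRNP proteins (Hnrnp) often oppose them. Many of these genes control their own level through exons or introns whose retention brings in an early stop codon and sends the RNA to nonsense-mediated decay (NMD). Inhibition of splicing in mouse ESCs has been reported to move them toward a state that resembles early blastomeres.

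Several of the widest differences lay between isoforms of 1 gene, and 3 pairs of sequences show where such isoforms part. All are from GENCODE M21 transcripts on GRCm38, written 5′ to 3′. The first pair is from Hnrnpu on chromosome 1, minus strand, after the last coding exon that both transcripts share. Lower case marks the shared bases and capitals the end that differs, up to and including the stop codon. Hnrnpu-201, the coding transcript, ends its reading frame at chr1:178329354-178329407. Hnrnpu-206, annotated as an NMD target, splices instead to an exon downstream and ends at chr1:178325281-178325313.

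Hnrnpu-201: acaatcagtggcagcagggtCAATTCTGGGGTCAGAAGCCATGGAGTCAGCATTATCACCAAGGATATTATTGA
Hnrnpu-206: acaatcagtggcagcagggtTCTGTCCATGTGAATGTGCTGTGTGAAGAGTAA

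The second pair is from Srsf6 on chromosome 2, plus strand. An exon of 268 bases, chr2:162932815-162933082, lies in the NMD transcript Srsf6-201 and is skipped in the coding transcript Srsf6-203. Its first 152 bases, chr2:162932815-162932966, are shown after 20 bases of the exon before it, with the early stop codon in capitals.

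Srsf6-201: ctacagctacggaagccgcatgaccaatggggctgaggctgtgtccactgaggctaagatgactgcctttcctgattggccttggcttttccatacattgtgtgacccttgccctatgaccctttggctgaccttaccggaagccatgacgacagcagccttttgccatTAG
Srsf6-203: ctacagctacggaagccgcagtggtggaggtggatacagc

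The third pair is from Hnrnpa2b1 on chromosome 6, minus strand. A cassette exon of 36 bases next to the start codon, chr6:51467391-51467426 and in capitals below, separates the B1 form of the protein (Hnrnpa2b1-203) from the A2 form (Hnrnpa2b1-204).

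Hnrnpa2b1-203: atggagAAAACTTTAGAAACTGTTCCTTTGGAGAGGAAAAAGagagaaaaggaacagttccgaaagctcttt
Hnrnpa2b1-204: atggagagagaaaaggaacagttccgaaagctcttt

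Values are TPM, a length-scaled share of a library's transcripts that the authors estimated for 58853 transcripts, of which 390 belong to the members. The listed TPM summed to 66.6% to 69.1% of a full TPM scale in the 4 libraries, and the read depth is unknown. The GFP- library of the reporter-only line stood apart, with 48.4% of symbols listed at 0, against 11.6% to 19.5% in the others. The sort was visible in 2C-like marker genes, which summed to 19.6 and 18.4 TPM in the GFP- libraries and to 1644 and 3261 TPM in the GFP+ ones, and 18 of 19 were 2-fold or more higher in both lines. Pluripotency markers summed to 2866 to 3528 TPM and none of the 8 was at 0 in any library. Markers of the primitive endoderm summed to at most 3.07 TPM and those of the trophectoderm to between 32.5 and 41.4 TPM. Of the fibroblast markers, which summed to 309.6, 202, 8.28 and 186 TPM, Vim was at 309.6, 189.9, 8.16 and 178 TPM and Thy1 at 0, 11.9, 0 and 7.27 TPM. Here and below, 4 values stand in the order reporter-only line GFP-, reporter-only line GFP+, fusion line GFP- and fusion line GFP+. Markers of differentiating cells summed to 48.1, 41.8, 69.2 and 76.5 TPM. Of these, Otx2 was higher in the fusion line, at 24.3, 24.7, 55.6 and 62.1 TPM. Nes was lower there, at 17.1, 12.7, 7.30 and 8.09 TPM, and Sox1 was at 6.65, 3.53, 5.69 and 5.78 TPM. Mixl1 and Pax6 were at no more than 0.30 and 0.85 TPM. The 2C-like markers and Thy1 moved with the sort, and Vim was low in the GFP- library of the fusion line. Of the 8 pluripotency markers, 1 was 2-fold or more higher in both lines and 0 were lower. It was Tbx3, at 29.1, 101, 32.0 and 102 TPM. The trophectoderm marker Tfap2c was lower in GFP+ cells of both lines, at 39.4, 24.9, 34.0 and 23.3 TPM. Eomes of the same list, at 0, 2.64, 0 and 3.42 TPM, and the endoderm marker Gata4, at 0, 1.64, 0 and 2.13 TPM, were higher. The part of these markers in the results below was not tested.

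As a whole, the splicing genes took a similar share of the RNA in each library. Their summed level was 9016, 9058, 9717 and 8975 TPM, which is 1.34%, 1.32%, 1.46% and 1.299% of the listed TPM. The 20 Hnrnp genes held more than the rest together, with 4840.4, 5171, 5767 and 5383 TPM. On the log2(TPM + 1) scale, the median ratio of GFP+ to GFP- cells over the members was 0.07 in the reporter-only line and 0.08 in the fusion line, beside 0.19 and 0.14 over all genes at 5 TPM or more in either library. Median-ratio scaling moved the median of all genes by -0.15 in the fusion line and put the members there at -0.07. Quantile normalization moved the median of all genes by -0.18 in both lines and put the members of the fusion line at -0.03. In bulk samples, fewer cells of a type and less RNA per cell cannot be told apart.

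**Figure D1:**
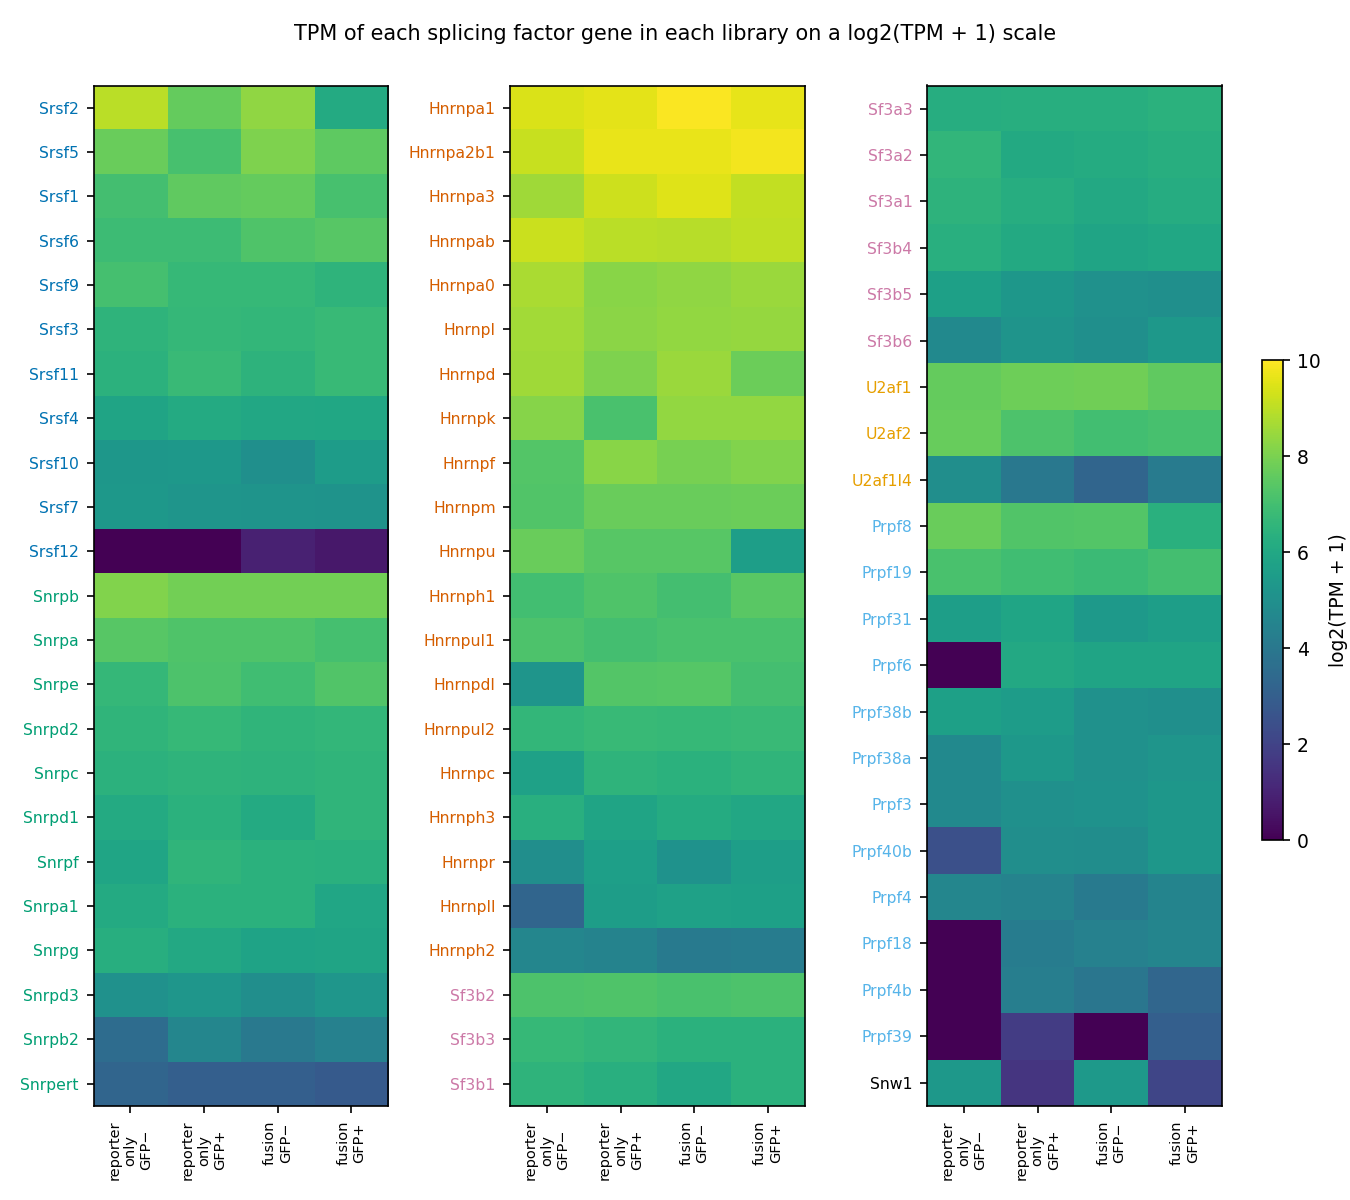
Level of 68 of the 69 genes in each of the 4 libraries, as log2(TPM + 1) by colour, with rows ordered by subfamily and then by mean TPM. Rows are mostly even in colour, and the dark cells include Prpf6, Prpf18, Prpf4b and Prpf40b in the GFP- library of the reporter-only line. Also dark are Prpf39 in both GFP- libraries and in the GFP+ library of the reporter-only line, Srsf12 in all, and Snw1 in both GFP+ libraries.

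In the reporter-only line, 11 members were 2-fold or more apart between the sorted populations among those at 5 TPM or more, against 40.7% of all genes. Of these, 8 were higher in GFP+ cells, where 33.2% of all genes were, and 3 were lower, where 7.48% were. In the fusion line 4 members were 2-fold apart, against 11.4% of all genes, with 1 higher (8.23% of all genes) and 3 lower (3.14%), or 0 and 4 under quantile normalization. Each line has 1 library per population, so these counts describe pairs of libraries and carry no test. Between the GFP+ libraries of both lines, 4 members were 2-fold apart (9.76% of all genes). Hnrnpk and Prpf39 were higher in the fusion line (5.71% of all genes), each with a log2 ratio of 1.26, and Srsf2 and Hnrnpu were lower (4.05%), with log2 ratios of -1.53 and -1.80. The direction of Hnrnpu turned, to 313 TPM in the reporter-only and 345 TPM in the fusion line, with all transcripts that GENCODE M21 gives it. Under quantile normalization 1 member was higher and 3 were lower. Between the GFP- libraries 8 were apart (38.6%), with 7 higher (30.1%) and 1 lower (8.49%) in the fusion line. Among the 7 were Prpf6, Prpf18, Prpf4b, Prpf40b, Hnrnpdl and Hnrnpll, and the 1 was U2af1l4. Both comparisons that use the GFP- library of the reporter-only line had more genes apart than the comparisons that do not.

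Agreement between the lines was rarer. Of 68 members at 5 TPM or more in any library, 1 was 2-fold or more higher in the GFP+ cells of both lines (Prpf39, against 5.18% of all genes) and 2 were lower (Snw1 and Srsf2, against 0.712%). Counted by libraries that did not overlap, 24 members were higher in both GFP+ libraries than in both GFP- ones, where 33.2% of all genes were, and 10 were lower, where 9.54% were. The 10 were Hnrnpd, Hnrnph3, Hnrnpu, Hnrnpul1, Prpf8, Snrpb, Snrpert, Snw1, Srsf2 and Srsf5, with Hnrnpu taken under its own symbol. By sign alone, 27 members were higher in both lines (44.3% of all genes), 17 lower in both (16.6%) and 24 opposite (38.3%).

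**Figure D2:**
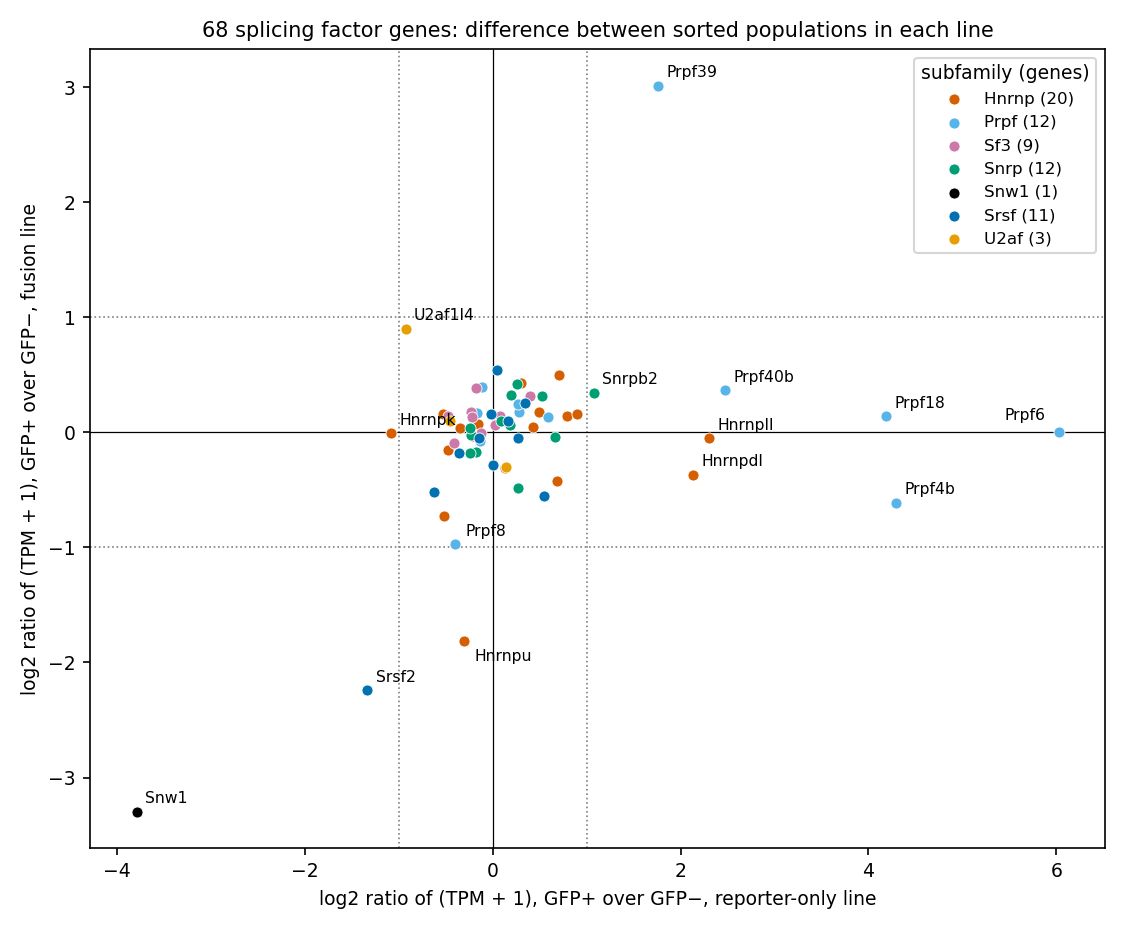
Log2 ratio of (TPM + 1) between GFP+ and GFP- cells for 68 of the 69 members, with the reporter-only line on the x axis and the fusion line on the y axis, coloured by subfamily; dotted lines mark 2-fold. Snw1 (-3.79 and -3.30) and Srsf2 (-1.34 and -2.24) lie beyond 2-fold at the lower left and Prpf39 at the upper right, while Prpf6, Prpf4b and Prpf18 are spread along the x axis only.

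A test over both lines called no member on the values as deposited. With limma on log2(TPM + 1), GFP status and line as terms and Benjamini-Hochberg adjustment, 0 of 68 members and 0 of 14379 genes (0.0%) had an adjusted p under 0.05. The model leaves 1 residual degree of freedom, and its p-values reflect just the spread among the 4 libraries, because the labels do not say whether the lines came from separate cultures or sorts. At an unadjusted p under 0.05 there were 6 members, against 6.76% of all genes. Prpf39 was the higher one (5.90% of all genes), and Hnrnpd, Prpf8, Snw1, Srsf2 and Srsf5 were lower (0.862%). For transcripts, 0 of 233 member transcripts and 0 of 25539 in all (0.0%) were called. There were 22 member transcripts with an unadjusted p under 0.05 (8.05% of all transcripts), 13 higher (6.84%) and 9 lower (1.21%). With quantile normalization limma called 6 members at an adjusted p under 0.05 (2.28% of all genes), all with lower estimates (0.619%). They were Hnrnpd, Hnrnpk, Prpf8, Snw1, Srsf2 and Srsf5. As deposited, Hnrnpk had log2 ratios of -1.08 and -0.006, so it was even in the fusion line. On 4 libraries with 1 residual degree of freedom, limma gave a smallest adjusted p there of 4.71e-114, so its calls there need caution. Without the GFP- library of the fusion line it called 10 members (29.2% of all genes) and 28 member transcripts (13.9% of all transcripts). On the values as deposited with all 4 libraries, no difference below passed the test, and "higher" and "lower" refer to the measured values.

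Snw1, also known as SKIP, is a component of the active spliceosome and a transcriptional coactivator, and it lies at chr12:87449075-87472274 on the minus strand. It was at 39.5 TPM in GFP- and 1.93 TPM in GFP+ cells of the reporter-only line, and at 41.1 and 3.28 TPM in those of the fusion line. Both GFP+ libraries lay far below both GFP- ones. The log2 ratios were -3.79 and -3.30, and the limma estimate was -3.54 with a standard error of 0.57 (adjusted p = 0.46). The tables list 1 of its 3 annotated transcripts, the coding Snw1-201. Slirp, an RNA-binding protein gene of the mitochondria that overlaps it on the opposite strand, was at 21.4, 15.3, 15.7 and 25.0 TPM, so its lowest value lay above both values of Snw1 in GFP+ cells. No transcript of another gene matched Snw1 at 95% identity over 200 bases.

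Of the SR protein genes, Srsf2 had the highest mean level over the 4 libraries. It is an activator of exon inclusion and lies at chr11:116849901-116853094 on the minus strand. Its level was 498 and 197 TPM in GFP- and GFP+ cells of the reporter-only line and 324 and 67.6 TPM in those of the fusion line. Both lines were lower in GFP+ cells, with log2 ratios of -1.34 and -2.24 and a limma estimate of -1.79 with a standard error of 0.28 (adjusted p = 0.46). Without a near-identical gene, it overlaps Mfsd11 and Mettl23 on the opposite strand, and both of these were higher in GFP+ cells, Mettl23 at 7.59, 15.3, 12.9 and 16.7 TPM.

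Srsf5, another SR protein gene, was at 210, 136, 266 and 185 TPM and so lower in the GFP+ cells of both lines, with log2 ratios of -0.62 and -0.52. Its near-identical processed pseudogene Gm12966 went the other way, at 70.1, 186, 100.4 and 181 TPM. With the TPM of Gm12966 added, the log2 ratio of Srsf5 was 0.20 in the reporter-only line and -0.00 in the fusion line. The sum of both was thus not lower in GFP+ cells of the reporter-only line, and how the authors' software divided reads between them was not tested. Srsf10, which represses splicing when it loses its phosphates, stood at 38.0, 39.4, 30.5 and 45.1 TPM, and Srsf11 at 86.0, 109.5, 87.7 and 105 TPM, with Gm43362, which overlaps Srsf11 on its strand, at no more than 0.86 TPM. Srsf12, a relative of Srsf10, was listed at 0 in both libraries of the reporter-only line and was at 0.89 and 0.55 TPM in the fusion line. The remaining 6 Srsf genes, whose ratios were all under 2-fold, were at 34.0 to 197 TPM, and the median ratio of the subfamily was 0.02 in the reporter-only line and -0.05 in the fusion line.

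**Figure D3:**
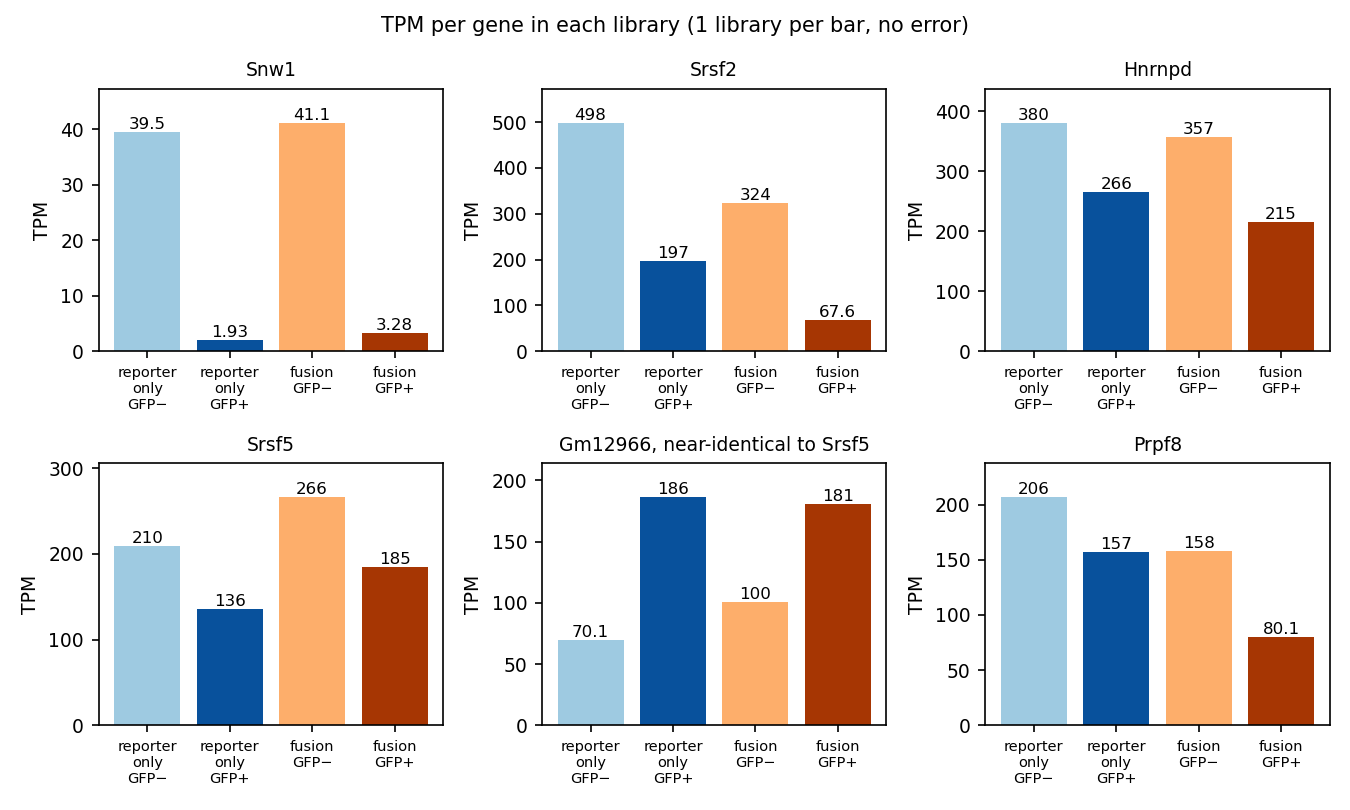
TPM of Snw1, Srsf2, Hnrnpd, Srsf5, Gm12966 and Prpf8 in each of the 4 libraries; each bar is 1 library, so there is no error bar, and every axis starts at 0. Snw1, Srsf2, Hnrnpd, Srsf5 and Prpf8 are lower in GFP+ than in GFP- cells of each line, and Gm12966 is higher.

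The Sm ring and the proteins of single snRNPs varied little. Snrpb, the most abundant Sm gene, was at 274, 233, 235 and 232 TPM. Of the other ring members, Snrpe was at 100.6, 146, 123 and 153 TPM and Snrpd1 at 69.04, 83.1, 69.1 and 92.8 TPM, both higher in the GFP+ cells of each line. Snrpf, at 57.4, 91.2, 82.9 and 80.6 TPM, and Snrpg, at 76.2, 64.4, 55.4 and 57.0 TPM, went in opposite directions in the lines. The log2 ratios were 0.53 and 0.32 for Snrpe, 0.26 and 0.42 for Snrpd1, 0.66 and -0.04 for Snrpf, and -0.24 and 0.04 for Snrpg. Snrpb2, a protein of the U2 particle, was at 10.4 and 23.1 TPM in the reporter-only line, a log2 ratio of 1.08, and at 15.6 and 20.1 TPM in the fusion line, a log2 ratio of 0.35. The median of the 12 genes was 0.19 in the reporter-only line and 0.05 in the fusion line. The fusion line's median turned to -0.11 under median-ratio scaling and -0.06 under quantile normalization.

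The branch-point complexes differed little between the sorted populations. In the fusion line 8 of the 9 Sf3 genes lay within 1.25-fold, and in the reporter-only line 6 did, beside 59.8% and 32.0% of all genes. Sf3b2, the most abundant, was at 147, 149, 139 and 145 TPM. Sf3b6, which contacts the branch point, was higher in the GFP+ cells of both lines, at 26.0, 34.7, 30.9 and 38.8 TPM. Sf3a3 was at 73.2, 77.1, 75.5 and 83.5 TPM, and the genes inside it on its strand, Gm12917 and Mir697, were at no more than 0.66 and 4.17 TPM. Sf3a2 was at 93.7, 67.2, 69.2 and 76.4 TPM and Sf3b5 at 50.5, 37.8, 32.6 and 30.6 TPM, both highest in the GFP- library of the reporter-only line. No Sf3 gene came near 2-fold, with ratios between -0.47 and 0.40 in the reporter-only line and between -0.09 and 0.39 in the fusion line.

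The Prpf genes held most of the zeros. In the GFP- library of the reporter-only line, Prpf6, Prpf4b, Prpf18 and Prpf39 were listed at 0. Prpf6, which bridges the particles of the tri-snRNP, was at 64.1, 55.6 and 55.7 TPM in the other libraries. Prpf4b, a kinase of the spliceosome, was at 18.6, 14.2 and 8.97 TPM in them, and Prpf18, a factor of the later catalytic step, at 17.2, 19.97 and 22.1 TPM. Prpf6 and Prpf18 thus varied little where they were above 0, and Prpf4b by just over 2-fold. Among genes that averaged 5 TPM or more elsewhere, 3 of 67 members were at 0 in that library, against 20.6% of all genes. In the other libraries none of 67 was, against 0.293%, 0.955% and 0.216% of all genes in the order reporter-only line GFP+, fusion line GFP- and fusion line GFP+.

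Prpf39, which works with the U1 particle in the choice of alternative sites, was listed at 0 in both GFP- libraries and was at 2.39 and 7.09 TPM in the GFP+ ones. It was the member that was higher by 2-fold in both lines, from a low level and from 1 listed transcript of 10, and with a pseudocount of 5 TPM its log2 ratio in the reporter-only line was 0.56. Fkbp3 overlaps it on the opposite strand at 168, 211, 184 and 223 TPM. The snoRNA gene Gm25970, on its own strand, was listed at 0 in 3 libraries and at 0.15 TPM in the fourth.

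Prpf8, the large protein at the heart of the catalytic core, was at 206, 157, 158 and 80.1 TPM. Its log2 ratios were -0.40 and -0.97, and the nearest values of the groups were 157 and 158 TPM, so the groups lay side by side. Under median-ratio scaling its ratio in the fusion line was -1.13. Prpf40b, a partner of the U1 particle, was at 4.46, 29.4, 29.3 and 38.0 TPM, and so more than 2-fold higher in GFP+ cells of the reporter-only line. Prpf19, the ubiquitin ligase of the complex that activates the spliceosome, was even at 137, 122, 113 and 127 TPM.

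By the mean over the 4 libraries the most abundant member was Hnrnpa1, a general splicing repressor, at 700, 764, 993 and 799 TPM, though Hnrnpa2b1 was above it in both GFP+ libraries. It has 8 near-identical genes, of which 4 are listed and sum to 535, 586, 724 and 634 TPM. Hnrnpdl and Hnrnpll resembled the Prpf genes with zeros: they were at 35.7 and 8.69 TPM in the GFP- library of the reporter-only line, and at 128 to 165 TPM and 46.9 to 52.3 TPM in the rest. Hnrnpk, a poly-C-binding protein, was the reverse case, with 138 TPM in the GFP+ library of the reporter-only line and 293 to 332 TPM in the rest. By its total, each of these 3 genes was set apart by 1 library. The coding transcripts of Hnrnpdl summed to 30.1, 62.5, 22.1 and 65.2 TPM. Their sum was thus higher in the GFP+ cells of both lines, with log2 ratios of 1.03 and 1.52. Among them, Hnrnpdl-207 went in opposite directions in the lines, at 29.1, 12.8, 10.6 and 43.6 TPM, so the lines did not agree by transcript. The NMD transcripts of Hnrnpdl, at 0, 66.6, 97.8 and 39.4 TPM, did not separate the populations.

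Hnrnpd, also known as AUF1, binds AU-rich elements and promotes decay of the RNAs that carry them, and it lies at chr5:99955935-99978938 on the minus strand. It was at 380, 266, 357 and 215 TPM. Both GFP+ libraries lay below both GFP- ones, with log2 ratios of -0.51 and -0.73 (limma estimate -0.62, standard error 0.14, adjusted p = 0.46). By the deposited estimates, most of the difference sat in 1 short coding transcript of 493 bases, Hnrnpd-210, at 147, 0.96, 118 and 8.41 TPM. The main transcript Hnrnpd-203 was at 140, 154, 202 and 158 TPM and did not separate the populations. Hnrnpd-210 shares 85.0% of its bases with Hnrnpd-203, which is 1670 bases long, so a read counts for more TPM on Hnrnpd-210. How the authors' software divided the shared reads was not tested, and the place of the difference depends on that division.

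Hnrnpu, a nuclear scaffold protein that binds chromatin-associated RNA, lies at chr1:178321108-178337797 on the minus strand, and its level depended on which transcripts were counted. Under its own symbol it was at 207, 168, 169 and 47.5 TPM, with log2 ratios of -0.30 and -1.81. The tables hold 4 more transcripts under the symbols Gm28062 and Gm16586 that GENCODE M21 gives to Hnrnpu. With them, the gene summed to 229, 313, 185 and 345 TPM, with log2 ratios of 0.45 and 0.90. The direction of the gene thus depended on the assignment of transcripts to symbols.

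The transcript behind this was Hnrnpu-206, the NMD form whose coding end is printed above, listed as Gm28062. It was listed at 0 in both GFP- libraries and was at 132 and 277 TPM in the GFP+ ones, where it made up 42.2% and 80.3% of the gene's TPM. The coding Hnrnpu-201 was at 198, 122, 162 and 44.1 TPM, which is 86.6%, 39.0%, 87.5% and 12.8% of the gene. Coding and NMD forms thus went in opposite directions in both lines. In the limma fit over transcripts, the estimate for Hnrnpu-206 was 7.59 with a standard error of 0.72 (adjusted p = 0.45), and that for Hnrnpu-201 was -1.27 with a standard error of 0.33 (adjusted p = 0.45). Hnrnpu-206 has 17 exons to 14 in Hnrnpu-201, shares 12 of its 16 introns and 90.6% of its bases with it, and is 2844 bases long against 7640, so a read counts for more TPM on it. How the authors' software divided the shared reads was not tested. Hnrnpu-206 was chosen for description after its values were seen.

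The 3 U2af genes differed from one another. U2af1, which reads the AG at the intron's end, was at 198, 219, 228 and 185 TPM. U2af2, which binds the polypyrimidine tract before it and lies at chr7:5062143-5079938 on the plus strand, was at 202, 146, 125 and 134 TPM. U2af1l4, a relative of U2af1, was at 29.4, 15.0, 8.68 and 17.1 TPM, with log2 ratios of -0.93 and 0.90, so the lines went in opposite directions. Without 1 transcript that GENCODE M21 gives to Gm49396, it was at 29.4, 13.4, 5.02 and 17.1 TPM, and both ratios passed 2-fold, at -1.08 and 1.59. Near-identical pseudogenes of U2af2 and U2af1 were at 27.0 to 45.1 TPM (Gm5846) and 74.9 to 91.0 TPM (Gm10232).

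The isoforms of U2af2 were further apart than its total, whose log2 ratios were -0.46 and 0.10. By the deposited estimates, coding transcripts made up 87.9% and 40.0% of the gene in the GFP- libraries and 0.34% and 0.62% in the GFP+ ones. The retained-intron transcript U2af2-207 was at 4.98, 136, 57.2 and 122 TPM. Its 904 bases end inside the gene and share 4 of the 11 introns of the coding form U2af2-201. It shares 54.3% of its bases with that form. How the authors' software divided the shared reads was not tested, and the coding shares depend on that division. The coding U2af2-209 was at 38.9 and 49.6 TPM in GFP- cells and at 0.0040 and 0.065 TPM in GFP+ cells. The retained-intron U2af2-206 was at 14.8 and 11.2 TPM in GFP- cells and at 0.00043 and 0.00047 TPM in GFP+ cells. The coding U2af2-201 was at 138 TPM in the GFP- library of the reporter-only line and at most 0.27 TPM elsewhere, so the form that was high in GFP- cells differed between the lines. Estimates by limma were -5.44 with a standard error of 1.13 for U2af2-209 (adjusted p = 0.45) and 2.80 with a standard error of 0.92 for U2af2-207 (adjusted p = 0.57).

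**Figure D4:**
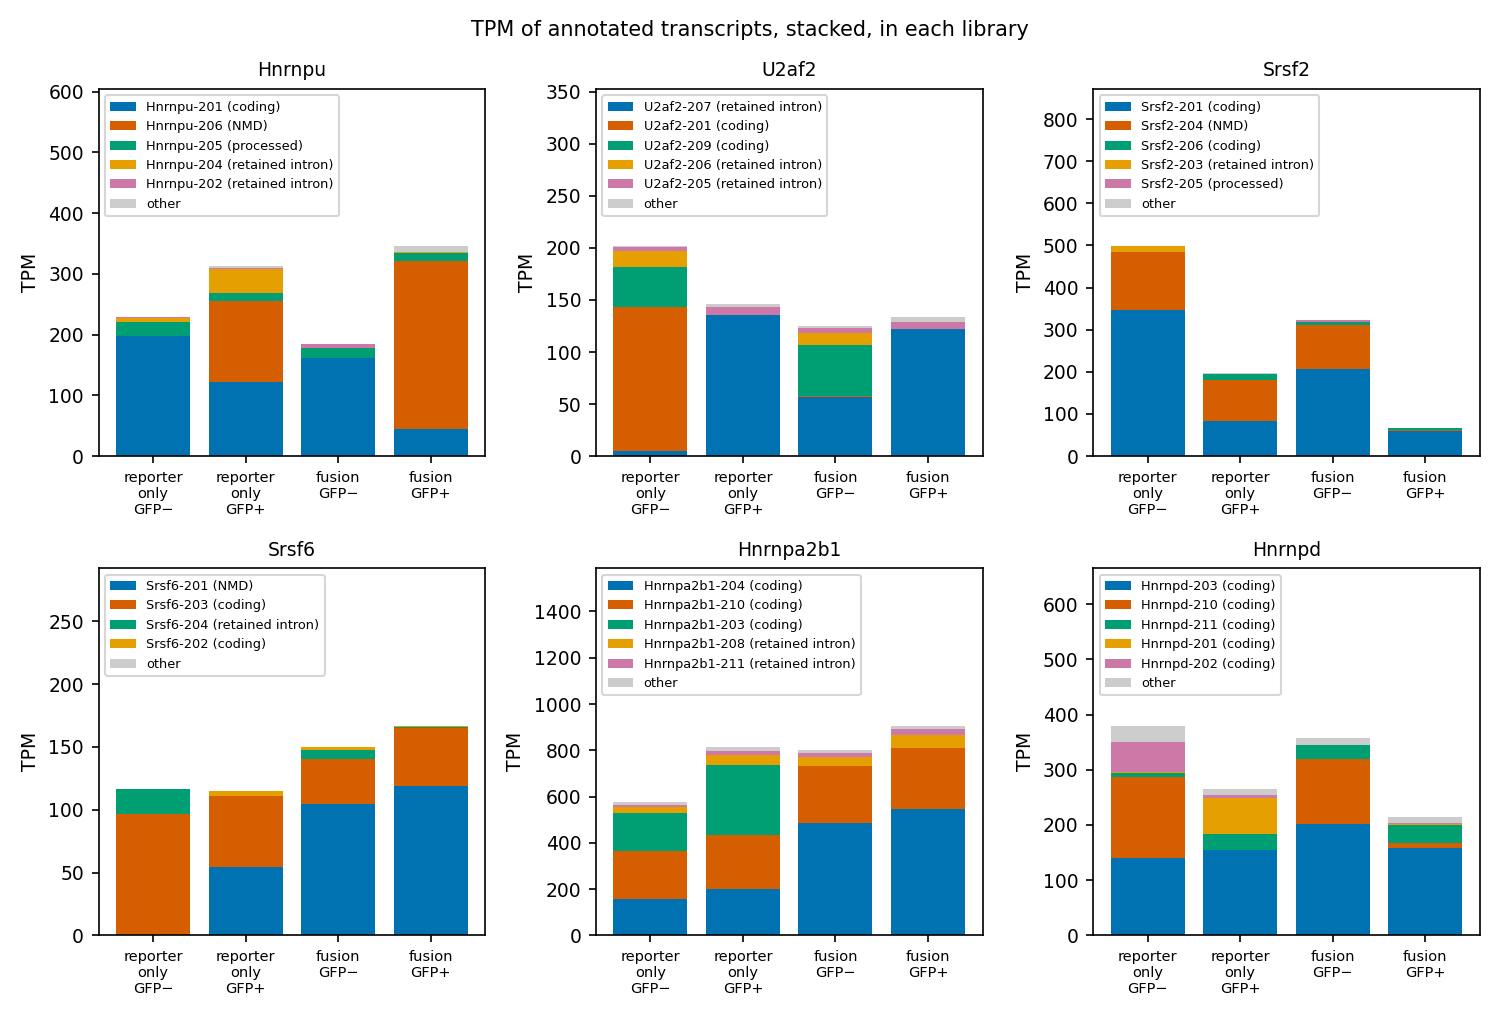
TPM of the annotated transcripts of 6 genes, stacked in each of the 4 libraries, with the 5 most abundant transcripts of each gene coloured and the rest grey; the legend gives each transcript's annotated class. The NMD form of Hnrnpu (132 and 277 TPM) and the retained-intron form of U2af2 (136 and 122 TPM) fill most or much of the bars of GFP+ cells, and Hnrnpa2b1-203 appears in the reporter-only line only.

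Across all members, 205 transcripts reached 5 TPM, of which 8 were 2-fold or more higher in the GFP+ cells of both lines and 12 were lower. The same held for 7.03% and 2.67% of all transcripts at that level. In opposite directions, 15 were 2-fold or more apart (6.52% of all transcripts), and 11 at 20 TPM or more (5.54%). The 20 that were apart in the same direction came from 16 genes, which include Snw1-201 and Prpf39-201 from the genes above. Srsf2-201, the coding transcript of Srsf2, was at 347, 82.2, 207 and 60.1 TPM (limma estimate -1.92, standard error 0.15, adjusted p = 0.45). Its NMD transcript Srsf2-204 was at 136, 97.9, 105 and 1.76 TPM, low in the GFP+ library of the fusion line and at 97.9 TPM or more in the rest.

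Hnrnpk-202 and Hnrnpc-202 were listed at 0 in both GFP- libraries. Hnrnpk-202, a coding transcript of 18 exons, was at 30.8 and 107 TPM in the GFP+ ones. Hnrnpc-202, of the gene for a poly-U-binding protein, was at 14.2 and 8.73 TPM there. Prpf8-203 was at 4.98, 32.9, 0.92 and 21.5 TPM, Srsf10-203 at 0, 3.71, 0.64 and 5.38 TPM and U2af1l4-203 at 0, 7.64, 0.94 and 5.63 TPM. All of these transcripts were higher in the GFP+ cells of both lines. Hnrnpk-202 shares 90.1% of its bases with Hnrnpk-201, and Hnrnpc-202 shares 99.1% with Hnrnpc-201. How the authors' software divided the shared reads was not tested.

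Of 20 Srsf transcripts of a class other than coding that reached 5 TPM, 5 were 2-fold or more lower in both lines and 1 higher. Over all transcripts of any class at that level, 2.67% were lower and 7.03% higher. By sign alone, 8 were lower in the GFP+ cells of both lines, 4 higher in both and 8 opposite. The shares over all transcripts of such classes were not counted, so no trait of the Srsf genes is read from these counts. Srsf6-204, a retained-intron transcript, was at 19.6, 0.06, 7.23 and 0.06 TPM, and the processed transcript Srsf5-206 at 11.4, 0.95, 37.1 and 0.67 TPM. The coding Srsf11-204 was at 20.6, 3.44, 3.91 and 0.11 TPM, while the retained-intron Srsf11-211 was at 6.79, 46.4, 16.7 and 44.3 TPM. Over all members, the share of TPM in retained-intron transcripts was 9.39%, 7.60%, 7.40% and 8.04%, beside 8.21%, 4.77%, 5.21% and 4.90% over all protein-coding genes. That in NMD transcripts was 2.32%, 3.77%, 4.32% and 2.71%, beside 1.05%, 1.64%, 1.60% and 1.72%. On these symbols neither share of the members separated GFP+ from GFP- cells. With the members' transcripts taken by their GENCODE M21 gene, as they are for the protein-coding genes, the NMD share was 2.31%, 5.13%, 4.28% and 5.69%, so both GFP+ libraries lay above both GFP- ones for the members, as they did for all protein-coding genes. The TPM that the assignment adds in GFP+ cells is mainly that of Hnrnpu-206.

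Some isoforms separated the lines and not the sort. The B1 form Hnrnpa2b1-203, which holds the 36-base exon printed above, was at 166 and 304 TPM in the reporter-only line and was listed at 0 in both libraries of the fusion line. The A2 form Hnrnpa2b1-204 was at 157 and 201 TPM in the reporter-only line and at 484 and 545 TPM in the fusion line. The total of Hnrnpa2b1 was 576, 813, 802 and 907 TPM, of which all coding transcripts made up 537, 751, 746 and 820 TPM. The fusion line thus also held other coding transcripts of the gene, and which of them hold the exon was not examined. How the authors' software divided reads between the forms was not tested, so a listed 0 does not show that the exon was absent. For Srsf6, the NMD form with the early stop, Srsf6-201, was at 0, 54.3, 105 and 119 TPM and the coding Srsf6-203 at 96.7, 56.8, 36.1 and 46.7 TPM, so 3 libraries held both forms and the GFP- library of the reporter-only line listed the coding form without the NMD form.

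Near-identical genes were common. At 95% identity over 200 bases, 26 members had a match and 43 had none. Summed over the members there were 85 matches, 79 of them to pseudogenes, and a gene that matched several members counted for each. Some matches, such as March2 for Hnrnpm, are genes that overlap the member on its strand. The largest case was Hnrnpa3, with 35 such genes, of which 30 are listed and sum to 629, 747, 857 and 816 TPM, more than the 376, 604, 734 and 547 TPM of Hnrnpa3 itself. For members with a match, the split of reads between copies is uncertain. The pseudogene Snrpert, a copy of Snrpe, was at 8.56, 7.07, 7.13 and 6.19 TPM.

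RefSeq promoters (GRCm38.p6, the 250 bases before the start and 50 after it) were found for 58 of the 69 members. Motifs were searched on both strands of the 250 bases before the start, and a gene counted if any of its promoters held the motif. The ETS-type motif CCGGAAG was in 31.0% of these members and in 7.83% of all 27025 genes with a promoter. The CCAAT motif was in 48.3% against 37.5%, CACGTG in 12.1% against 6.86% and TATAAA in 8.62% against 14.3%. Srsf2, the SR gene with the lowest ratio in both lines, is among the 5 members with TATAAA. The others are Snrpa, Sf3b3, Srsf3 and Hnrnpm, whose log2 ratios lay between -0.17 and 0.43 in the lines. A link between the motif and the levels was not tested. The 250 bases before its start, chr11:116853095-116853344 on the minus strand, are shown with CCAAT (from position -82) and TATAAA (from position -29) in capitals.

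Srsf2: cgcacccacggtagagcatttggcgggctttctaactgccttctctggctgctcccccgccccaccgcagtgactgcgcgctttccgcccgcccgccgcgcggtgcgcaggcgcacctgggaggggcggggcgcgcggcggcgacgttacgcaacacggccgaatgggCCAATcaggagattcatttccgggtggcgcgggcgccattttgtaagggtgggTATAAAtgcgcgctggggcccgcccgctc

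Both motifs stand in the strand shown, and each is a match of letters, not a measured site.

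Splicing genes outside the set were counted in 6 lists, and limma called none of their genes. Of 28 genes of the Prpf19 complex and the catalytic step, 2 were 2-fold or more higher in both lines and 0 lower, beside 5.18% and 0.712% of all genes, which also stand against the counts of the other 5 lists. These were Cwc22, which loads the exon junction complex, at 0, 38.9, 14.1 and 86.0 TPM, and Aqr, an intron-binding helicase, at 16.6, 41.5, 25.4 and 82.0 TPM. Of 15 genes of the exon junction complex and NMD, 1 was, Upf3b, which links both processes, at 0, 12.9, 0 and 19.3 TPM.

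Among 23 genes of the Lsm and Smn complexes, Lsm10, a subunit of the U7 particle, was at 0, 4.59, 0.89 and 13.8 TPM and was the 1 of its list to pass 2-fold in both lines; Gemin2 was at 2.04, 21.8, 19.5 and 27.5 TPM. Among 18 genes of SR kinases and SR-like proteins, Scaf8 passed 2-fold in both lines at 0, 14.5, 7.55 and 18.2 TPM, and Srpk2, a kinase of SR proteins, was at 0.40, 1.62, 2.30 and 17.3 TPM. Among 33 further snRNP-associated genes, Txnl4a, a small protein of the U5 particle, passed at 1.45, 45.3, 0.59 and 5.11 TPM, and Rnpc3, of the minor spliceosome, was at 2.64, 6.52, 2.87 and 6.46 TPM. Of 39 other splicing regulators none passed, and the leading ones were Rbm25 at 39.8, 109.9, 68.3 and 105 TPM and Cirbp at 32.7, 49.1, 45.7 and 72.1 TPM. In none of the 6 lists was a gene 2-fold lower in both lines.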

How the data were processed

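The authors deposited TPM per transcript for each of the 4 libraries. CASAVA, HISAT2 2.1.0, StringTie 1.3.5 and the build GRCm38 (mm10) are named in the submitters' processing notes. Options, annotation release and the choice of transcripts to list were not given in the sources used here. Of 58853 transcripts, 58388 matched GENCODE M21, which gave classes, lengths and positions, and 390 of the 524 member transcripts it holds are listed.

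TPM were summed per symbol and per transcript. Ratios use log2(TPM + 1), so differences of low genes are understated. Genes 2-fold apart were counted, with no test, where either of the libraries compared reached 5 TPM. A two-sided limma test (3.58.1, R 4.3.3, robust eBayes with trend, Benjamini-Hochberg over all features) took GFP status and line as terms. Features entered it that reached 1 TPM in 2 or more libraries. It was tested on simulated data. TPM keep no read counts, so no depth, counting interval or count test was used, and a 0 is given as listed at 0. Near-identical genes were found with BLAST+ 2.17.0.

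The members and gene lists were chosen with earlier results of these data known. Named by rule, with values, were Snw1, the most abundant member of each subfamily and the 4 with the largest mean ratio, members at 0 or 2-fold apart in both lines, 12 transcripts and 2 genes per list; Hnrnpu-206, U2af2-207, Srsf2-201, Srsf6-201, Srsf6-203 and the Hnrnpa2b1 forms, among others, were chosen after their values were seen. Alternatives were other pseudocounts, floors, filters and scalings, no line term and each library left out. Values of 1 member and 1 gene of a list are not reported here, though both count in the totals.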

Additional observations from a re-analysis of the deposited data

Results flagged for a closer look

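Of 205 member transcripts at 5 TPM or more in a library, 15 were 2-fold or more apart in opposite directions in the lines. This is near the share over all transcripts at that level, 6.52%. At 20 TPM or more there were 11, beside 5.54% of all transcripts, but the member transcripts at that level were not counted. These 11 are described below and are not read as a trait of the members. The difference between the lines was not tested, since each population is 1 library. Log2 ratios of GFP+ to GFP- cells are given below for the reporter-only line and then the fusion line.

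Higher in the GFP+ cells of the reporter-only line and lower in those of the fusion line were Srsf1-202 (5.68 and -1.17), a coding transcript of a founding SR protein, Prpf8-202 (5.06 and -5.49), Hnrnpdl-205 (4.89 and -4.54) and Hnrnpdl-206 (2.07 and -2.79), which are an NMD and a retained-intron transcript, and Snrpa1-201 (2.17 and -1.23), an NMD transcript. Of these, Srsf1-202, Prpf8-202, Hnrnpdl-205 and Snrpa1-201 were listed at 0 in the GFP- library of the reporter-only line, the library with the most zeros. Prpf8-202 stood at 0, 32.4, 106 and 1.38 TPM.

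On the opposite side, lower in the reporter-only line and higher in the fusion line, were Hnrnpab-202 (-3.90 and 3.96), Srsf10-207 (-3.45 and 1.84), Hnrnpd-202 (-3.04 and 1.06), Snrpb-204 (-2.55 and 1.52), Hnrnpl-201 (-1.64 and 2.33) and Hnrnpdl-207 (-1.12 and 1.94). Hnrnpl-201, of a protein that binds CA-rich RNA, stood at 96.6, 30.3, 8.45 and 46.5 TPM.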

How the results depend on the processing

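With quantile normalization, limma called 6 member genes and 1 member transcript, Srsf2-201. The genes were Hnrnpd, Hnrnpk, Prpf8, Snw1, Srsf2 and Srsf5, all with lower estimates in GFP+ cells. Hnrnpk was even in the fusion line as deposited, and the cause of the calls was not tested. Leaving out each library, with GFP status as the only term, gave 0 to 10 genes and 0 to 28 transcripts. The 28 stand beside 13.9% of all transcripts. The highest counts came without the fusion line's GFP- library, where Snw1 was lower and the other 9 genes higher; the lone GFP- library is then assumed to vary like the GFP+ ones. The other pseudocounts, filters, median-ratio scaling and the fit with no line term called 0 members. The titles pair the libraries by line, and the line term is that pairing; the labels give no other replicate block.

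Between the GFP- libraries, the 8 members 2-fold apart became 5 at a floor of 20 TPM and 5 among genes above 0 in both. Counting coding transcripts only, an alternative added after seeing the data, gave 7 in the fusion line in place of 4; adding near-identical genes or using GENCODE M21 genes, also added then, kept all 4 counts within 1.5 times. Of 232 ratios of named genes under the other pseudocounts and scalings, 226 stayed on their side of 2-fold, 3 came past it, 3 went under it and 0 reversed. Unknown depth limits values near 0, and short transcripts that share exons with long ones.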
